A study of Mus musculus with 6 samples.

Results

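Keratins and vimentin, the proteins of the cytoplasmic intermediate filaments, were followed through the RNAseq of J110 and SSM3 cells. The 10 genes Krt7, Krt8, Krt18, Krt19, Krt14, Krt5, Krt15, Krt17, Krt80 and Vim were taken by symbol from the 52636 genes of the deposited raw counts. All 10 were found, and each had at least 1 count in at least 1 library. The question put to them was how the intermediate filament mRNA pool is made up in each line.

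J110 cells are a mammary tumour line from transgenic mice in which the MMTV LTR, a promoter active in the mammary epithelium, drives AIB1 cDNA. SSM3 cells are a mammary tumour line from 129SvEv mice. Both were grown untreated, with 3 biological replicates per line, so p-values measure the spread between these cultures and not between tumours. SSM3 cells were kept in more serum and more CO2 than J110 cells and also received holo-transferrin and β-mercaptoethanol, while both media held insulin and hydrocortisone, so culture and line cannot be told apart. Libraries sampled the 3′ ends of polyadenylated RNA and held from 4200785 to 5416305 counts. Ncoa3, which encodes AIB1, had from 102 to 110 counts in J110 and from 181 to 199 in SSM3, so the transgene did not serve as a check of the labels.

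Keratin filaments are built from pairs of one type I and one type II chain, so an epithelial cell makes both. Simple epithelia, among them the luminal cells of the mammary gland, use Krt8 and Krt7 (type II) with Krt18 and Krt19 (type I). The basal layer uses Krt5 (type II) with Krt14 and Krt15 (type I), and Krt17 (type I) appears in stressed or wounded epithelium. Krt80 is a type II keratin of differentiating cells. Vimentin is a type III protein that forms filaments by itself and is typical of mesenchymal cells, cells that have lost epithelial features and many cells in culture.

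The genes lie at 3 places of mm10. The type I genes Krt15 (chromosome 11, 100131758 to 100135928), Krt19 (100140810 to 100148665), Krt14 (100203162 to 100207548) and Krt17 (100256217 to 100261029) lie in the type I cluster on the reverse strand. Krt15 and Krt19 are neighbours, 4.9 kb apart with no annotated gene between them. The type II genes Krt80 (chromosome 15, 101347444 to 101370162), Krt7 (101411043 to 101430313), Krt5 (101707070 to 101712898) and Krt8 (101996698 to 102004482) lie in the type II cluster. Krt18 (102028180 to 102032027), a type I gene, lies at the end of that cluster, 23.7 kb from Krt8 and on the other strand, with no annotated gene between the pair. Vim stands by itself on chromosome 2 (13573927 to 13582826, forward strand).

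Promoter sequences from RefSeq (GRCm38.p6, 250 bases before to 50 bases after the start) were examined for 5 of the 10 genes, Vim, Krt5, Krt7, Krt14 and Krt18. The letters CACCTG or, on the other strand, CAGGTG were found in 3 of these 5 promoters and in 20.2% of all 32851 promoters. These letters are an E-box of the kind that the zinc finger proteins of the Snai and Zeb families, described with the other regulators further on, are known to bind. The 3 matches are shown with the bases around them so that the letters can be read in place in Krt7 and Krt18, which were abundant in both lines, and in Krt5, which was near 0 counts in both. Vim held neither form, but held the letters TATAAA (either strand), which are in 13.6% of all promoters and in none of the other 4. The other letters searched on both strands were GGGCGG, found in 1 of the 5 (Krt7) and 35.7% of all, TGANTCA, found in 0 and 7.8%, and CCATTGG, found in 1 (Vim) and 4.9%. Capitals mark the match, each line runs 5′ to 3′ along the gene's strand, and positions count from the RefSeq start. A match describes letters only and was not tested as a site.
Krt7, chr15:101412347-101412376, forward strand, match from -44, inside an exon of a longer GENCODE transcript: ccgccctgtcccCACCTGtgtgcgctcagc
Krt18, chr15:102027990-102028019, forward strand, match from -214, outside the GENCODE gene model: aggggctaacacCACCTGctatcctttgtg
Krt5, chr15:101713016-101713045, reverse strand, match from -128, outside the GENCODE gene model: cacaccactgtgCAGGTGtgctgggtgagc
Vim, chr2:13574267-13574296, forward strand, match from -32, inside an exon of a longer GENCODE transcript: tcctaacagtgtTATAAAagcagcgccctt

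The filament mRNA pool had a different main component in each line. Vimentin made up 62.1% ± 0.964 (SD, n = 3) of the counts on the 10 genes in J110 and 0.0803% ± 0.0706 (SD, n = 3) in SSM3. In SSM3 the main component was Krt19, with 60.1% ± 0.445 (SD, n = 3) of the pool, against 0.222% ± 0.108 (SD, n = 3) in J110. The kit makes about one fragment near the 3′ end of a transcript whatever its length, so counts of these genes were set side by side without division by length. A share counts these fragments and is not a share of protein.

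The vimentin share was 62.1%, 61.2% and 63.1% in the J110 libraries, with 95% Wilson intervals that together ran from 60.7% to 63.5%. In the SSM3 libraries it was 0.0608%, 0.159% and 0.0216%, all below 0.196% at the upper end of their intervals. The groups did not overlap, and the difference was -62.0 percentage points (exact permutation test, two-sided, p = 0.1, which is the lowest value that 3 libraries against 3 allow, and 0.1 after Benjamini-Hochberg adjustment over the 3 pool measures tested). Wilson intervals here cover counting error only, since no molecular identifiers are described.

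**Figure D1:**
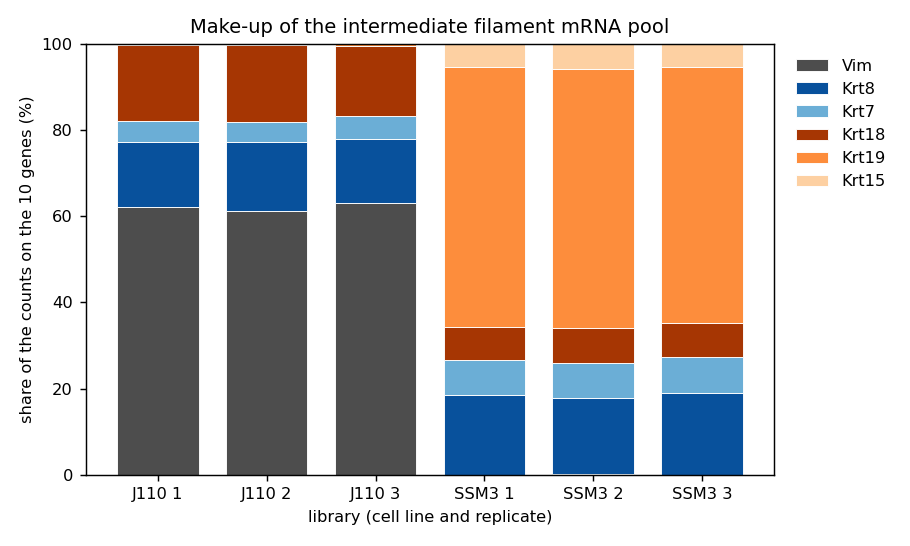
Stacked bars give, for each library on the x axis, the share (%) of the counts on the 10 genes that fell on each of 6 of them. Vim fills from 61.2% to 63.1% of the J110 bars and Krt19 from 59.6% to 60.5% of the SSM3 bars. The other 4 genes hold too few counts to be seen and are not drawn.

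The rest of the J110 pool was almost wholly Krt18, Krt8 and Krt7, with 17.3% ± 0.829, 15.4% ± 0.585 and 4.92% ± 0.299 (SD, n = 3 each). In SSM3, Krt8 took 18.4% ± 0.686, Krt7 8.14% ± 0.144, Krt18 7.87% ± 0.336 and Krt15 5.38% ± 0.327 (SD, n = 3 each). Seen within the keratins only, Krt8 and Krt18 together made up 86.3% ± 1.42 of the keratin counts in J110 and 26.3% ± 0.490 in SSM3 (SD, n = 3 each). Shares of one pool are tied to each other, so a gene can lose share without losing level, as the levels show.

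The level of the whole pool, in CPM (counts scaled to a common library size with TMM factors), was 8068, 8108 and 8646 in J110 and 12447, 11645 and 12918 in SSM3. It was higher in every SSM3 library, by 0.58 on the log2 scale (exact permutation test, two-sided, p = 0.1, again the lowest possible). Without vimentin, the 9 keratins summed to 3134 ± 68.3 CPM (J110) and 12327 ± 652 CPM (SSM3), each SD with n = 3.

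Across all genes, 12284 passed the filter on low counts, and 77.9% of them differed between the lines in edgeR's quasi-likelihood test with Benjamini-Hochberg adjustment (adjusted p below 0.05), with 38.6% of all tested higher and 39.2% lower in SSM3. The libraries of the lines did not overlap for 79.6%. Of the 10 genes, 7 passed the filter and all 7 differed, 5 higher and 2 lower in SSM3, with no overlap between the lines for any of the 7. Against a background of 77.9% this count says little by itself, and the sizes that follow carry the description. Krt5, Krt17 and Krt80 did not pass the filter and are given by their counts.

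**Figure D2:**
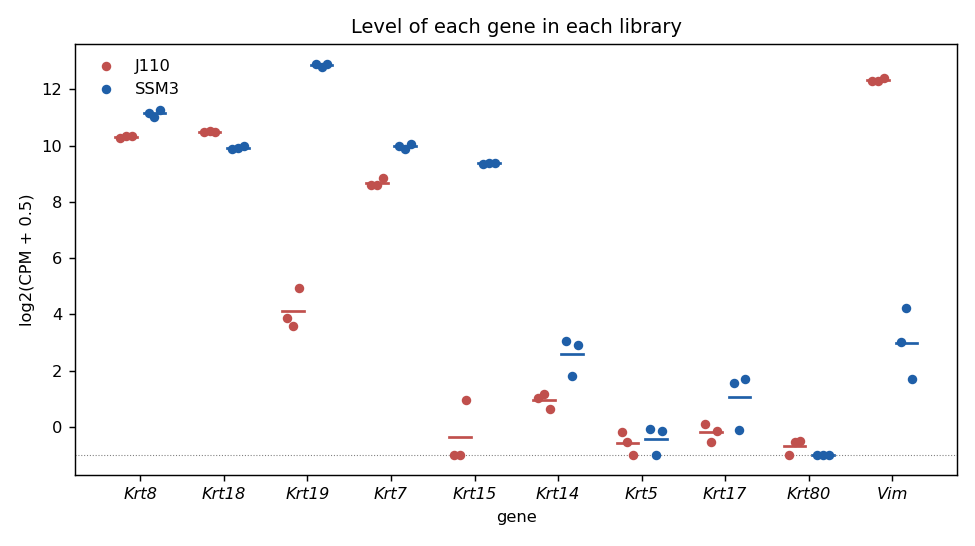
Each point is a library, with log2(CPM + 0.5) on the y axis and the gene on the x axis, and each short line is the mean of the 3 libraries of a line. The dotted line is the value at 0 counts. Krt19, Krt15 and Vim lie far apart between the lines, Krt8, Krt18 and Krt7 lie close, and Krt5 and Krt80 lie near 0 counts in both.

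Among the type II keratins of simple epithelia, Krt8 is the partner present earliest in development and in most simple epithelia. Its J110 levels were 1231, 1302 and 1290 CPM and its SSM3 levels 2304, 2053 and 2452 CPM. All SSM3 libraries were above all J110 libraries, with a log2 fold change (always SSM3 over J110) of 0.83 ± 0.075 (SE, edgeR adjusted p = 3.12e-08). Krt7, a keratin of ducts and glands, stood at 384, 384 and 455 CPM in the J110 libraries and at 1004, 937 and 1073 CPM in those of SSM3. It was higher in every SSM3 library, by 1.30 ± 0.081 on the log2 scale (SE, edgeR adjusted p = 2.84e-10). The Krt8 to Krt7 count ratio was 3.14 ± 0.284 in J110 and 2.26 ± 0.0571 in SSM3 (SD, n = 3 each).

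Krt18, the usual type I partner of Krt8, went the other way. The J110 libraries had 1427, 1450 and 1414 CPM and the SSM3 libraries 940, 958 and 1012 CPM. Every SSM3 library was lower than every J110 library, with a log2 fold change of -0.56 ± 0.065 (SE, edgeR adjusted p = 6.61e-07). With a test for changes beyond 2-fold (glmTreat), neither Krt8 nor Krt18 passed (edgeR adjusted p = 1 for both), in a range from 4.23e-36 to 1 for Krt8 and 1.75e-15 to 1 for Krt18 over all alternatives. Krt8 and Krt18 are neighbours on chromosome 15, and their count ratio was 0.863, 0.898 and 0.912 in J110 and 2.45, 2.14 and 2.42 in SSM3.

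Krt19, a type I keratin that lacks the usual tail domain and is typical of luminal cells, was counted 74, 59 and 143 times in the J110 libraries and 33815, 32985 and 38701 times in those of SSM3. In CPM these were 14.3, 11.7 and 29.8 against 7530, 7005 and 7701. By mean CPM Krt19 ranked 2 of 52636 genes in SSM3, after mt-Nd4, and 6980 in J110. The log2 fold change was 8.65 ± 0.21 (SE, edgeR adjusted p = 1.77e-15), and without J110 replicate 3, the J110 library with the most Krt19, it was 9.14.

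Krt19 was thus low in J110, where counts on genes of the other line also occur. For each library such counts were measured on genes with at least 100 CPM in the other line and at most 3 counts over the other 2 libraries of its own line. The 10 genes described were left out of the measure. It came to 0.062%, 0.0313% and 0.222% of the other line's level in J110 replicates 1, 2 and 3, over 30, 27 and 48 genes. Krt19 in the same libraries stood at 0.192%, 0.157% and 0.403% of its SSM3 level. These values lie above the measure, but the rule admits only genes with few counts in the line. Krt19 had too many J110 counts to meet the rule, so nothing is drawn from that order. The part of such counts in the J110 value of Krt19 was not tested.

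Krt15, a type I keratin of basal and progenitor cells, lies next to Krt19 and was counted 0, 0 and 7 times in J110, and 2922, 3159 and 3354 times in SSM3, there at 651, 671 and 667 CPM. The SSM3 libraries differed by no more than counting error, with a coefficient of variation of 1.63% where counting alone gives 1.78%. All 7 J110 counts fell in replicate 3, at 0.22% of the SSM3 level, next to the 0.222% measured on genes of the other line in that library. The log2 fold change was 10.40 with all libraries, and from 9.80 to 10.42 when any library other than J110 replicate 3 was left out. These values rest on the 7 J110 counts, as Krt15 passed the filter through SSM3 only. Without J110 replicate 3 no J110 count was left, and against a floor of 3 counts per library Krt15 was at least 1132-fold higher in SSM3.

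The basal keratins Krt14 and Krt5 had few counts in both lines. Krt14 was counted 8, 9 and 5 times in J110 and 35, 14 and 35 times in SSM3, or 1.46 ± 0.376 and 5.91 ± 2.58 CPM (SD, n = 3 each). It was higher in each SSM3 library, by 2.0 ± 0.40 on the log2 scale (SE, edgeR adjusted p = 0.000231), and stayed far below Krt15 in the same libraries. Krt5, the type II partner of Krt14, was counted 2, 1 and 0 times in J110 and 2, 0 and 2 times in SSM3. Both lines were at or below 3 counts per library, so a Krt5 difference was not detectable at this depth, where 3 counts correspond to between 0.578 and 0.668 CPM.

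Krt17 was seen 3, 1 and 2 times in J110 and 11, 2 and 14 times in SSM3. The libraries of the lines overlapped, and the ratio of the summed, scaled counts was 4.76 (95% exact counting interval from 1.92 to 14.1). When every gene with a count was tested, Krt17 had a log2 fold change of 2.20 ± 0.65 (SE, edgeR adjusted p = 0.00185). That fit took in 22592 genes, against 12284 in the main fit, and estimated its error over all of them. Its p-value is therefore not comparable with the main ones. Both Krt14 and Krt17 were lowest in replicate 2 among the SSM3 libraries. Krt80 had 0, 1 and 1 counts in J110 and none in SSM3, at or below 3 counts in every library, so no difference was detectable.

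Vim was counted 25984, 25068 and 26136 times in J110 and 34, 87 and 14 times in SSM3, which gives 5009, 4958 and 5454 CPM against 7.57, 18.5 and 2.79 CPM. By mean CPM it ranked 12 of all genes in J110 and 8617 in SSM3. The log2 fold change was -9.07 ± 0.27 (SE, edgeR adjusted p = 2.28e-14), and it was -9.98 without SSM3 replicate 2 and -8.61 without SSM3 replicate 3. In SSM3 replicates 1, 2 and 3 Vim stood at 0.147%, 0.359% and 0.0542% of its J110 level, and counts on genes of the other line at 0.0974%, 0.42% and 0.0109%. Both measures were highest in replicate 2 and lowest in replicate 3. Their part in the SSM3 value of Vim was not tested.

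Vimentin is also a gene of fibroblasts, leukocytes and endothelial cells, so markers of these were set beside it. Of 8 fibroblast markers, 7 had at most 10 counts in every J110 library, and the list summed to between 1.54 and 4.38 CPM in J110, where Col1a2, Lum and Pdgfrb had no count. In SSM3 it summed to between 1337 and 1480 CPM, nearly all of it Dcn, while Col1a1, Col1a2, Col3a1 and Lum had none. The 8 leukocyte markers summed to between 29.2 and 37.0 CPM in J110, mostly Cd68 and Csf1r, and between 14.7 and 17.2 CPM in SSM3, and Ptprc, which encodes CD45, had no count in J110. The 7 endothelial markers summed to between 159 and 182 CPM in J110, nearly all of it Cdh5, with Tie1 and Emcn at 0, and between 3.18 and 4.90 CPM in SSM3. In bulk libraries fewer cells of a type and less RNA per cell cannot be told apart.

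Other epithelial markers parted the lines more sharply than Krt8, Krt18 and Krt7 did. The 8 markers Epcam, Cdh1, Cldn3, Cldn4, Cldn7, Esrp1, Esrp2 and Elf3 summed to between 26.1 and 37.4 CPM in J110 and between 3014 and 3138 CPM in SSM3. In J110, 6 of the 8 had at most 10 counts in every library, among them Epcam with 2, 1 and 7, while Krt8 had at least 6182 and Krt18 at least 6777. The 9 myoepithelial markers, which include Krt5 and Krt14, summed to between 12.5 and 17.2 CPM in J110 and between 8.07 and 15.7 CPM in SSM3, so these ranges overlapped. Within that list Mylk had 60, 46 and 30 counts in J110 and 1, 6 and 5 in SSM3, while Krt14 and Trp63 had more counts in SSM3.

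Keratin pairing asks for as much type I as type II protein, and the mRNA was set against that at the level of counts. The type I members (Krt18, Krt19, Krt14, Krt15 and Krt17) summed to 1451 ± 10.8 (J110) and 9053 ± 383 CPM (SSM3), and the type II members (Krt7, Krt8, Krt5 and Krt80) to 1682 ± 65.0 and 3275 ± 269 CPM (SD, n = 3 each). The type I to type II ratio was 0.893, 0.868 and 0.829 in J110 and 2.76, 2.89 and 2.66 in SSM3. All J110 libraries were below 1 and all SSM3 libraries above it, a difference of 1.68 in the log2 ratio (exact permutation test, two-sided, p = 0.1, again the lowest possible). With Krt19 left out of the type I sum, a choice made after the values were seen, the ratio was 0.884, 0.861 and 0.812 in J110 and 0.484, 0.546 and 0.479 in SSM3, and the order of the lines turned.

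**Figure D3:**
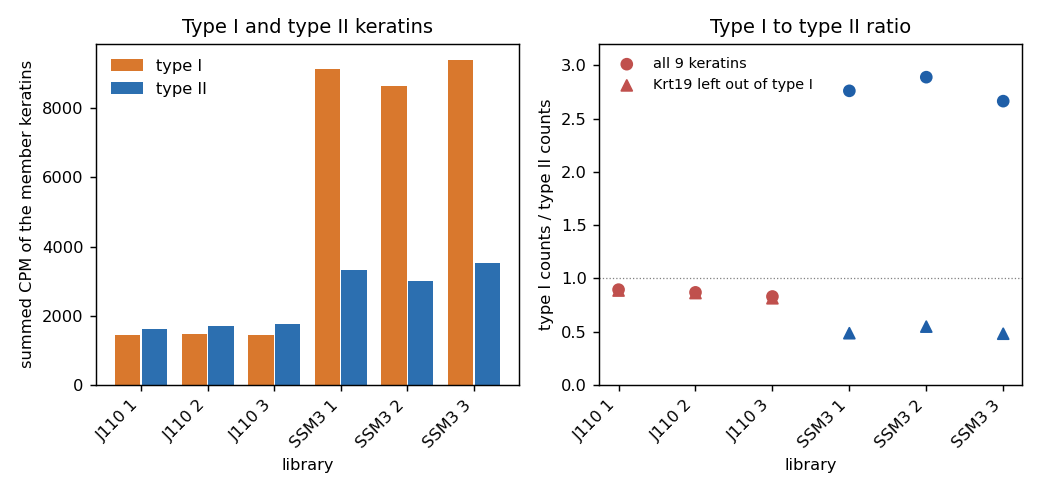
The left panel gives the summed CPM of the type I and type II members per library. The right panel gives the ratio of their counts with all 9 keratins (circles) and with Krt19 left out of type I (triangles), red for J110 and blue for SSM3, with a dotted line at 1. The circles sit between 0.829 and 0.893 in J110 and between 2.66 and 2.89 in SSM3, and the SSM3 triangles between 0.479 and 0.546.

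Ordered by mean CPM, the J110 pool ran Vim, Krt18, Krt8, Krt7, Krt19, Krt14, and the values of no neighbouring pair among these 6 overlapped over the 3 libraries. The other 4 genes had at most 7 counts in any J110 library, and Krt15 (0 to 1.46 CPM) overlapped both Krt14 and Krt17. The SSM3 pool ran Krt19, Krt8, Krt7, Krt18, Krt15, Vim, Krt14, Krt17. There Krt7 (937 to 1073 CPM) and Krt18 (940 to 1012 CPM) overlapped, as did Vim with Krt14, while Krt15 stayed below Krt18 in every library.

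The spread between replicates of one line was at most 10.1% (coefficient of variation) wherever the mean was above 100 CPM, reached by Krt7 in J110, with 8.89% for Krt8 in SSM3. The coefficient of variation of Vim in J110 was 5.30% and that of Krt19 in SSM3 4.90%, where counting alone gives 0.623% and 0.533%. That of Krt18 in J110 was 1.26%, close to the 1.18% of counting. The low values spread far more, with 52.9% for Krt19 in J110 and 83.7% for Vim in SSM3, against 10.4% and 14.9% from counting.

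The rest of the keratin family had few counts. Of 54 keratin genes in the table (27 on chromosome 11 and 27 on chromosome 15), 36 had at least 1 count, and of the 45 outside the 10 described, 6 passed the filter. Of these 6, 2 were higher and 3 lower in SSM3 (77.9% of all genes tested differed, with a median log2 fold change of -0.014). These 5 passed the filter only through the line in which they were high, so no median is given for them. Krt6a, a type II keratin of wounded and hyperproliferative epithelium, had 0, 2 and 5 counts in J110 and 492, 564 and 651 in SSM3. These counts gave 0.480 ± 0.527 CPM (J110) and 120 ± 9.99 CPM (SSM3, SD, n = 3 per line). Krt77, a type II keratin of sweat gland ducts, had no count in J110 and was at least 20.3-fold higher in SSM3.

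At the other end of the chromosome 11 cluster, the 3 tested type I keratins other than Krt10 had counts in J110 and none in SSM3. Krt23 had 121, 119 and 118 counts in J110 and none in SSM3, at least 37.6-fold lower, and Krt20, a keratin of gut and urothelium, had 22, 13 and 17 counts against none, at least 5.45-fold lower. Krt27, a hair follicle keratin named after its values were seen, had 14, 13 and 14 counts against none. Krt10, the suprabasal epidermal keratin, was the one that did not pass the test, at 11.6 ± 0.439 and 9.91 ± 1.75 CPM (SD, n = 3 each, edgeR adjusted p = 0.283).

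**Figure D4:**
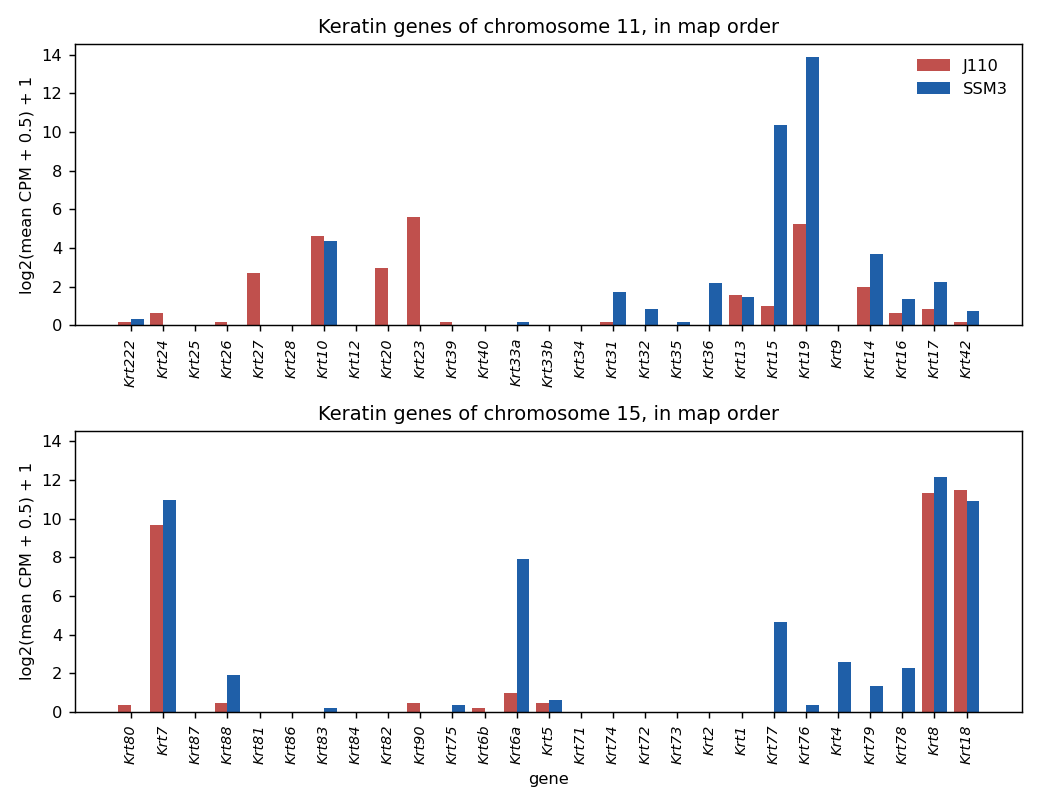
Bars give log2(mean CPM + 0.5) + 1, which is 0 at 0 counts, for the 54 keratin genes in their order along chromosomes 11 and 15, red for J110 and blue for SSM3. Krt23 and Krt20 show J110 bars only, the neighbours Krt15 and Krt19 show the tallest SSM3 bars of chromosome 11, and Krt8, Krt18 and Krt7 are tall in both lines.

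Of 17 other intermediate filament genes, 5 passed the filter, 4 of them lower and 1 higher in SSM3. Among all genes tested, 39.2% were lower and 38.6% higher. Nes, which encodes nestin, a filament protein of progenitor cells that assembles with vimentin, passed the filter only through J110, so no median is given. It was counted 333, 287 and 356 times in J110 and 1, 2 and 0 times in SSM3. The lamins line the nucleus in every cell. Lmna was at 989 ± 51.0 (J110) and 562 ± 37.5 CPM (SSM3), Lmnb1 at 271 ± 28.9 and 139 ± 9.92 CPM, and Lmnb2, the one that was higher in SSM3, at 19.1 ± 6.49 and 34.1 ± 2.48 CPM (SD, n = 3 each). Iffo2, a less studied filament family gene, fell by 2.09 on the log2 scale from J110 to SSM3. Des, Gfap and Prph, the closest relatives of vimentin, had at most 5 counts in any library.

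Among 15 counted genes that link filaments to junctions or bind keratins, 14 passed the filter, 7 of them higher and 3 lower in SSM3. That share of calls was no higher than the 77.9% of all genes tested. Several of the 14 passed only through the line in which they were high, so no median is given. Desmosomal proteins anchor keratins at cell contacts, and their genes went both ways. Pkp3 (plakophilin 3) was at 1.15 ± 0.661 (J110) and 339 ± 15.6 CPM (SSM3) and Dsg2 (desmoglein 2) at 0.655 ± 0.396 and 121 ± 2.48 CPM, while Pkp1 (plakophilin 1) was at 123 ± 18.2 and 0.553 ± 0.532 CPM (SD, n = 3 each). Evpl, which encodes envoplakin, had 3, 3 and 1 counts in J110 and was at 28.7 ± 0.753 CPM in SSM3 (SD, n = 3).

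Dsp, the desmoplakin gene that ties keratins to desmosomes, had a log2 fold change of 2.06, and Jup, which encodes plakoglobin, of 1.59. Plec, the gene of the general filament linker plectin, had a log2 fold change of -0.60, and Csnk1a1, a kinase that acts on keratin networks, also of -0.60. Desmosomal Pkp2 (plakophilin 2), named after its values were seen, was at 22.5 ± 2.25 (J110) and 24.1 ± 1.29 CPM (SSM3, SD, n = 3 per line) and did not pass the test (log2 fold change 0.10, edgeR adjusted p = 0.501). The large linkers Dst and Macf1 did not pass either, with log2 fold changes of -0.07 and -0.13 (edgeR adjusted p = 0.493 and 0.175).

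Of 19 transcription factors known to act on keratin or vimentin genes, 13 passed the filter. All 13 differed, 6 higher and 7 lower in SSM3, where 77.9% of all genes tested differed. Several passed the filter only through the line in which they were high, so no median is given. With at least 10 counts in every library, 4 were called. Snai2 and Zeb1, repressors that bind E-boxes, were at 48.3 ± 4.14 and 28.1 ± 5.66 CPM in J110, and each had 1 count over the 3 SSM3 libraries. Fosl1, an AP-1 subunit, was at 114 ± 9.78 (J110) and 0.354 ± 0.613 CPM (SSM3). Ovol1, an epithelial repressor of such factors, had no count in J110 and was at least 17.8-fold higher in SSM3. Tfap2a, an AP-2 factor of surface epithelium, was at 2.0 ± 0.856 (J110) and 118 ± 5.88 CPM (SSM3, SD, n = 3 for each of these values). Klf5, a factor of proliferating epithelium, and the ubiquitous Sp1 were lower in SSM3, with log2 fold changes of -1.0 and -0.57.

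**Figure D5:**
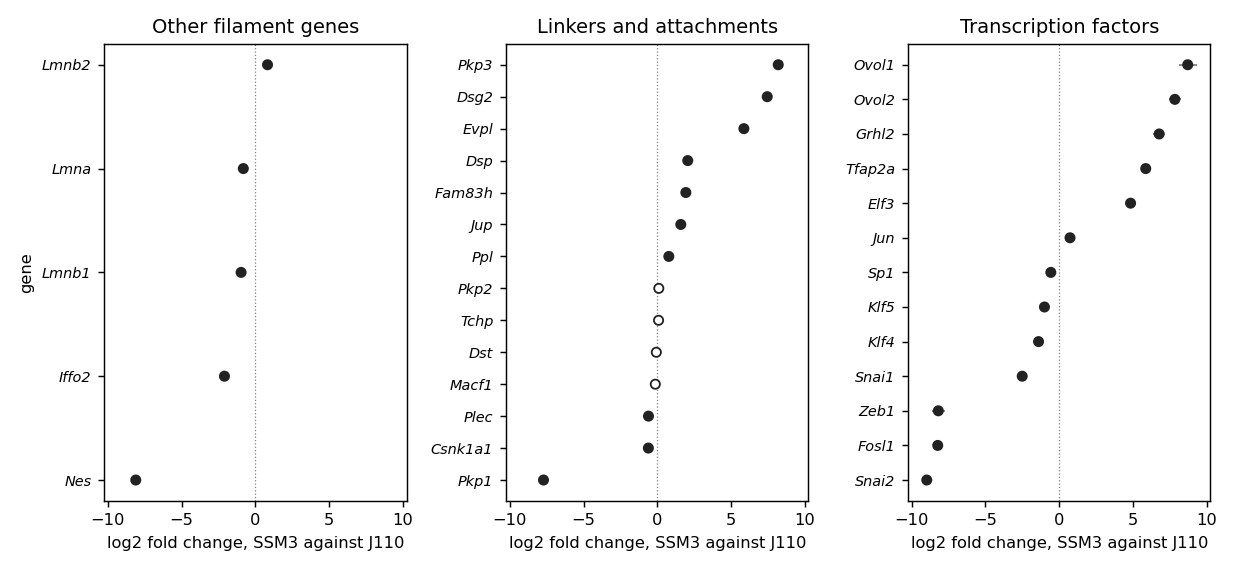
Points give the log2 fold change, SSM3 against J110, with its standard error as a bar, for the tested genes of 3 lists (other filament genes, linkers and attachments, transcription factors). Filled points passed the adjusted p threshold of 0.05 and open points did not. Pkp3 and Pkp1 lie at opposite ends of the middle panel, and Snai2, Fosl1 and Zeb1 at the left of the right panel.

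The genes nearest in pattern to Vim and to Krt19 were sought among the tested genes with at least 10 CPM on average, by the Euclidean distance between log2 CPM values centred on their mean over the 6 libraries. Nearest to Vim were Prkg2 (distance 0.466), Col18a1 (0.867) and Prl (1.12), and nearest to Krt19 were Rps3a3 (0.492), Epcam (0.502) and Cldn3 (0.503). Rps3a3 belongs to a ribosomal protein family with near-identical copies, so its value is uncertain. The 6 libraries form 2 groups, so this distance mostly compares the size of the difference between the lines.

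By exact match, full reads of 75 bases could tell these genes apart at the annotated 3′ ends examined. Shorter trimmed reads, mismatches and the genome outside transcripts were not examined. Of the 426 windows of 75 bases in the last 500 bases of the longest coding transcript of each, 0 were found in the GENCODE transcripts of another gene, for all 10 genes. Krt8-ps, the one pseudogene of a keratin here by its symbol, had 1 count in all. Krt5, Krt7, Krt8 and Krt80 overlap exons of genes on the opposite strand, and the strand setting of the counting is not given in the sources used here. The one of these partners in the count table, Gm44323 in Krt5, had no count, and Gm671, Gm36026 and Gm35853 were not analysed here, so the levels of Krt7 and Krt8 could hold antisense reads.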

How the data were processed

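RNA of 3 biological replicates each of J110 and SSM3 cells was made into QuantSeq 3′ libraries. Per the methods and labels, the authors removed low quality reads, trimmed with cutadapt (version 2.1), mapped to mm10 with HISAT2 (version 2.0.4), counted per gene with featureCounts (Subread 2.0.0) and deposited raw counts without normalisation. Strand setting and the handling of reads that match several places are not given in the sources used here. Symbols matched 52403 of 52636 identifiers (99.6%), and coordinates are from GENCODE M21 (GRCm38).

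After the filterByExpr filter and TMM scaling, all genes were tested with edgeR's quasi-likelihood test (edgeR 4.0.16, R 4.3.3, limma 3.58.1) with line as the only term and Benjamini-Hochberg adjustment over all genes tested. The test was tried on simulated data beforehand. Pool measures were compared with exact permutation tests. The biological coefficient of variation was 8.3%. TMM factors ran from 0.920 to 0.958 in J110 and from 1.05 to 1.07 in SSM3, and library size alone would shift every log2 fold change by about 0.17. No replicate was a copy of another (chi-square over its degrees of freedom from 2.21 to 5.62).

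The 10 genes and the lists were chosen with earlier results of these data known. Named outside the 10 genes by rule are, of each list, the 4 called genes with the largest log2 fold change in either direction and those above 100 CPM in a line, plus the 3 genes nearest in pattern to Vim and to Krt19. Marker genes and a few others (Krt10, Krt27, Pkp2, Des, Gfap, Prph) were named after their values were seen. Alternatives were DESeq2 (1.42.0), limma-voom, RLE scaling, library size only, library sizes without the ribosomal RNA locus of chromosome 17, other filters, glmTreat, a replicate block, other pools and leaving out each library. Eppk1 was not analysed here, and some details of genotype and promoters are not reported here.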

Additional observations from a re-analysis of the deposited data

How the results depend on the processing

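Each of the 7 genes tested kept its direction under all alternatives run for it, and of 110 alternative values 108 also kept the side of the threshold. The exceptions were Krt8 and Krt18 under glmTreat, as given above. A test for changes beyond 2-fold called 4272 of all genes in place of 9566, and 2 other intermediate filament genes in place of 5. With at least 10 counts in every library, a filter that drops any gene silent in either line, 0 other keratins, 6 filament partners and 4 regulators were called in place of 5, 10 and 13, and Krt14 and Krt15 could not be tested. With every gene that had a count, 12 other keratins and 9 other filament genes were called. With all keratins and other filament genes except lamins in the pool, the vimentin share differed by -60.8 percentage points and the log2 type I to type II ratio by 1.58. With library size only the pool differed by 0.75 on the log2 scale. Leaving out each library in turn gave from 7 to 8 of the 10 genes called, differences of the vimentin share from -62.5 to -61.5, of the log2 ratio from 1.65 to 1.71 and of the log2 pool level from 0.54 to 0.62. Without both J110 replicate 3 and SSM3 replicate 2, chosen after seeing the data because these had the most counts on genes typical of the other line, 8 of the 10 genes were called, Vim had a log2 fold change of -9.93 and Krt19 of 9.20, and the log2 ratio differed by 1.62. Deviations of same-numbered replicates were almost uncorrelated (0.013, 0.0157 and 0.0276), though each value was above those of different-numbered replicates (-0.0203 to 0.00721). A replicate block gave 9481 genes called and 7 of the 10. Depth limits Krt5, Krt17 and Krt80, which had too few counts for a difference below several-fold to be seen.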
